A study of Arabidopsis thaliana with 12 samples.

Results

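FLOWERING LOCUS C (FLC), its relatives MAF1 to MAF5, the repressor SVP, the flowering integrators SOC1 and FT and the phase-change gene SPL3 were followed over wild-type seedlings and the dominant grandifolia mutants gra1-D, gra2-D, gra3-D of Arabidopsis thaliana. The set holds 10 genes, taken by locus because the FLC clade had stood out between gra2-D and the other mutants in these same arrays. Of the 10 loci, 8 were analysed here among 20777 loci in all; MAF2 (AT5G65050) and MAF3 (AT5G65060) were not analysed here. All plants were of the Col-0 ecotype, raised in vitro on MS plates at 22 °C under long days (16 h light, 8 h dark), and RNA came from the vegetative part of seedlings at growth stage 1.03. Each of the 4 groups held 3 Affymetrix ATH1 arrays, 1 per biological replicate. The series title ties the mutants to a chromosomal duplication, and no wild type other than the shared Col-0 control was used. Nothing in the labels gives more than a line name for each mutant, so each stands for its own duplication and for whatever else that line carries.

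FLC encodes a MADS-box transcription factor that holds back flowering, and the MAF genes encode close relatives with similar repressive roles. FLC acts together with SVP, another MADS-box protein, on the genes SOC1 and FT, whose products promote the switch from leaf to flower production. SPL3 encodes a promoter of the change from juvenile to adult growth that is held low in young plants by the microRNA miR156. The Col-0 ecotype carries an inactive FRIGIDA allele, and FLC expression in it is correspondingly weak.

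Array medians lay between 6.36 and 6.43 on the log2 scale. A raised run of genes at the end of chromosome 4 distinguished every mutant from wild type, with a median log2 difference of 0.85 for gra1-D and 0.87 for both other lines. The run began at AT4G31170 for gra2-D, AT4G32830 for gra3-D and AT4G33510 for gra1-D. None of the 10 genes lies there: FLC, MAF2, MAF3, MAF4 and MAF5 are on chromosome 5, MAF1 and FT on chromosome 1, and SVP, SOC1 and SPL3 on chromosome 2. The tissue was checked with flower and root markers. Of 9 floral organ genes, 7 had group means under 5 in every group, a level taken as close to the array background. AG and AP3, for example, lay between 3.41 and 3.99. The exceptions were SHP2, with group means from 5.53 to 5.65, and SEP4, with group means from 6.36 to 6.71. Of 8 root markers, 6 lay under 5 in wild type, and the remaining SCR and SHR are also active in shoots. EXP18, at 4.98 in wild type, lay at 5.14 in gra2-D and 5.09 in gra3-D. SHR (AT4G37650) lies in the raised run and was higher in each mutant by 0.81 to 0.86, and no other root marker was called.

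Across the mutants, gra2-D had the highest FLC and MAF5 values and the lowest SOC1 and SPL3 values. FLC fell below wild type in gra1-D and gra3-D, whereas in gra2-D MAF5 and MAF4 rose and SOC1 and SPL3 fell. Limma called 4 of the 8 genes in gra2-D, 2 in gra3-D and 1 in gra1-D at an adjusted p under 0.05. The same fit called 11.5% of all loci in gra2-D, 6.11% in gra3-D and 5.58% in gra1-D. In a fit without the gra3-D arrays and with the others paired by replicate number, limma called 3 of the 8 genes in gra1-D (8.76% of all loci) and 5 in gra2-D (15.7% of all loci). The median log2 difference over the 8 genes was 0.138 for gra2-D, 0.015 for gra3-D and -0.061 for gra1-D, beside 0, -0.019 and -0.015 over all loci. The gra2-D arrays tested here against wild type are the ones whose contrast with the other mutants chose the set, and the 3 comparisons share the wild-type arrays, so they are not independent of the choice or of each other. In whole-tissue RNA, fewer cells of a type and less RNA per cell cannot be told apart.

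**Figure D1:**
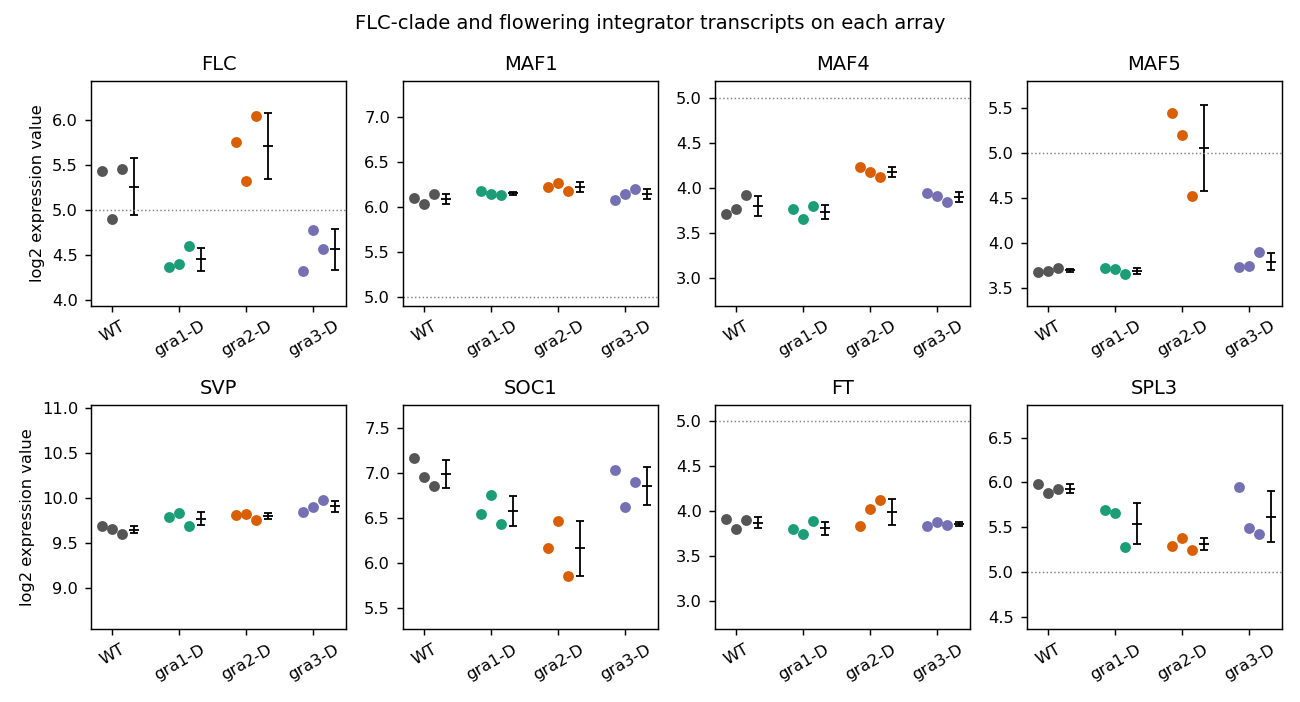
Log2 expression value (vertical axis, a span of equal height in each panel) of 8 genes on the 3 arrays of each group (horizontal axis). Points are arrays, the black mark beside them is the mean with its SD, and the dotted line is the level of 5 taken as close to background. FLC and MAF5 are highest in gra2-D, SOC1 is lowest there, and MAF1, SVP and FT move little.

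FLC (AT5G10140) was measured at log2 values of 5.43, 4.90 and 5.46 in the wild-type replicates. It gave 4.36, 4.40 and 4.60 in gra1-D and 4.32, 4.78 and 4.57 in gra3-D. In gra2-D it gave 5.76, 5.32 and 6.05. Every gra1-D and gra3-D array lay below every wild-type array, and the lowest gra2-D array lay within the wild-type range. The group means were 5.71 ± 0.365 (SD, n = 3) in gra2-D, 5.26 ± 0.315 in wild type, 4.56 ± 0.228 in gra3-D and 4.45 ± 0.131 in gra1-D. In this order, gra2-D overlapped with wild type and gra3-D with gra1-D, while wild type and gra3-D did not overlap.

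FLC fell 1.75-fold in gra1-D (log2 difference -0.81 ± 0.18, SE; limma adjusted p = 0.018) and 1.63-fold in gra3-D (-0.70 ± 0.18; adjusted p = 0.0357). Both mutant means lie under 5, so the sizes are uncertain. Against wild type, gra2-D stood at 0.45 ± 0.18 with a 95% interval from 0.06 to 0.84, which was not called (adjusted p = 0.148). Each gra2-D array lay above the wild-type array of the same number, by 0.33, 0.43 and 0.59. With arrays paired by number and gra3-D left out, FLC was called higher in gra2-D (0.45 ± 0.109, SE; limma adjusted p = 0.0196). With all 12 arrays paired it was not (adjusted p = 0.099), so the call depends on the fit. In the fit of all 12 arrays, gra3-D replicates 1 and 3 did not deviate with the arrays of their number. The gra1-D call did not survive leaving out WT replicate 1 or 3 or gra1-D replicate 1 or 2 (adjusted p up to 0.0799). That of gra3-D was lost without WT replicate 1 or 3, without gra3-D replicate 1 or 3 and with array weights (up to 0.141), and FLC in gra2-D was called higher without gra2-D replicate 2 (adjusted p = 0.0378).

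Between the mutants, FLC was 1.26 higher on the log2 scale in gra2-D than in gra1-D and 1.15 higher than in gra3-D. Against the mean of those lines, the difference was 1.20, or 2.3-fold. These values chose the set and are given without a test. FLC stood in place 3 from the top among 20014 loci outside the raised run when loci were ordered by this difference, and MAF5 in place 2. For FLC, 1.20 is made up of a position above wild type in gra2-D and of the falls in gra1-D and gra3-D.

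MAF5 (AT5G65080), which encodes another repressor of flowering and sits in tandem with MAF2, MAF3 and MAF4, showed another pattern. Its log2 values were 3.68, 3.69 and 3.72 in wild type, 3.72, 3.71 and 3.66 in gra1-D, and 3.73, 3.75 and 3.90 in gra3-D. In gra2-D they were 5.45, 5.20 and 4.53. All gra2-D arrays lay above the other 9 arrays, and their SD of 0.479 compares with SDs from 0.0164 to 0.0949 in the other groups. The rise of MAF5 in gra2-D was 1.36 ± 0.16 (SE; limma adjusted p = 6.78e-05), or 2.57-fold, a size that is uncertain because the wild-type mean of 3.70 is close to background. It stood at 0.00 ± 0.16 in gra1-D (adjusted p = 0.994) and at 0.10 ± 0.16 in gra3-D (adjusted p = 0.859).

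The group order for MAF5 was gra2-D, gra3-D, wild type and gra1-D, and only the last 2 of these overlapped. The 0.10 between gra3-D and wild type lies within background values and was not called. Against the mean of gra1-D and gra3-D, MAF5 in gra2-D was higher by 1.32, or 2.49-fold, given as a description. The call in gra2-D against wild type held under each of the 20 other settings that gave it a value, with log2 differences from 1.17 to 1.63.

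MAF4 (AT5G65070), the adjacent repressor gene, gave 3.71, 3.76 and 3.92 in wild type and 4.23, 4.18 and 4.12 in gra2-D. It gave 3.76, 3.65 and 3.80 in gra1-D and 3.94, 3.91 and 3.84 in gra3-D. The gra2-D arrays lay above all the others, and gra3-D overlapped with wild type, which overlapped with gra1-D. The rise of MAF4 in gra2-D was 0.38 ± 0.074 (SE; limma adjusted p = 0.00373), a call that held in each of 20 other settings. All 4 group means lie under 5, so the size of that rise is uncertain. Probes for the MAF genes can share sequence, the probe grouping behind each locus is not stated, and whether MAF4 and MAF5 were read apart from MAF2 and MAF3 was not tested.

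MAF1 (AT1G77080), also known as FLM, which represses flowering in a temperature-dependent way, stayed within a narrow range. Its arrays ran from 6.03 to 6.14 in wild type, 6.13 to 6.17 for gra1-D, 6.17 to 6.27 for gra2-D and 6.08 to 6.20 for gra3-D. Its log2 difference from wild type was 0.13 ± 0.063 for gra2-D, 0.06 ± 0.063 for gra1-D and 0.05 ± 0.063 for gra3-D (SE; limma adjusted p = 0.239, 0.723 and 0.793). The interval that reached furthest from 0, that of gra2-D at 95% confidence, ran from -0.01 to 0.26. Within the clade, then, differences were seen for FLC and for the measured pair of the chromosome 5 cluster, and MAF1 showed none that passed the test.

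**Figure D2:**
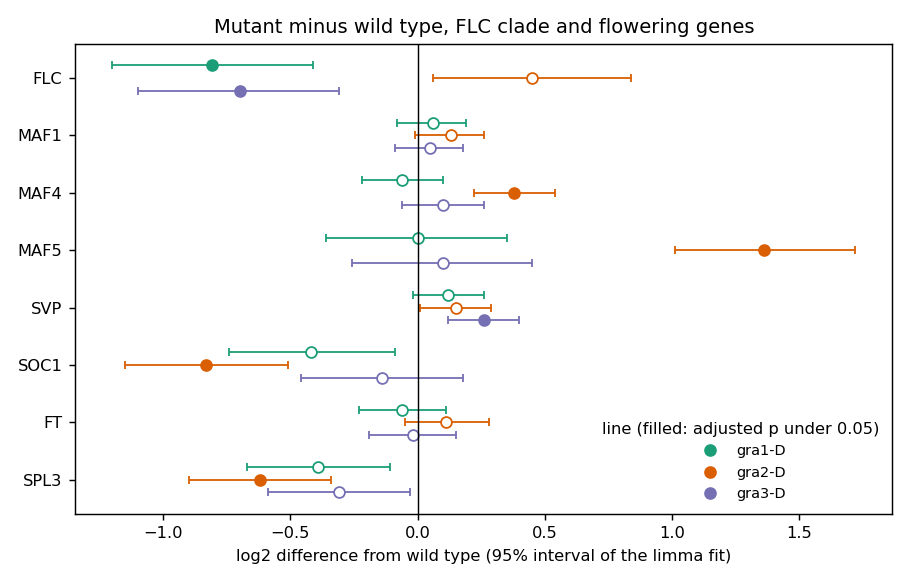
Log2 difference of each mutant from wild type (horizontal axis) for 8 genes (vertical axis), with the 95% interval of the limma fit over 3 arrays per group. Filled points passed an adjusted p under 0.05: FLC at -0.81 in gra1-D and -0.70 in gra3-D, MAF5 at 1.36, MAF4 at 0.38, SOC1 at -0.83 and SPL3 at -0.62 in gra2-D, and SVP at 0.26 in gra3-D.

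SVP (AT2G22540), the partner of FLC in repression, was measured at 9.69, 9.66 and 9.60 in wild type and at 9.85, 9.90 and 9.98 in gra3-D. It ran from 9.69 to 9.83 in gra1-D and from 9.76 to 9.82 in gra2-D. The gra3-D arrays lay above all the others, gra2-D overlapped with gra1-D, and gra1-D overlapped with wild type. SVP rose in gra3-D by 0.26 ± 0.065 (SE; limma adjusted p = 0.0302), or 1.2-fold. It stood at 0.12 ± 0.065 in gra1-D (adjusted p = 0.37) and 0.15 ± 0.065 in gra2-D (adjusted p = 0.188). The gra3-D call was lost on leaving out any wild-type replicate, gra3-D replicate 2 or 3 and in a fit of these 2 groups by themselves (adjusted p up to 0.123).

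SOC1 (AT2G45660), a promoter of flowering that FLC and SVP repress, was measured at 7.17, 6.95 and 6.86 in wild type. It gave 6.16, 6.47 and 5.85 in gra2-D, 6.54, 6.76 and 6.43 in gra1-D, and 7.03, 6.62 and 6.90 in gra3-D. The gra2-D arrays lay below all wild-type and gra3-D arrays and overlapped with gra1-D, where the lowest array of 6.43 lay under the highest gra2-D array. SOC1 fell 1.78-fold in gra2-D (-0.83 ± 0.15, SE; limma adjusted p = 0.00216), and the call held under each of 21 other settings, with values from -0.99 to -0.68. It stood at -0.42 ± 0.15 in gra1-D (adjusted p = 0.142; 95% interval -0.74 to -0.09) and at -0.14 ± 0.15 in gra3-D (adjusted p = 0.724). With arrays paired by number and gra3-D left out, the gra1-D difference of SOC1 was called (limma adjusted p = 0.0345). With all 12 arrays paired it was not (adjusted p = 0.106), so the call depends on the fit. The fit of all 12 arrays is limited by gra3-D, whose replicates 1 and 3 did not deviate with their numbers. SOC1 in gra2-D was 0.55 lower than the mean of gra1-D and gra3-D, and 0.42 and 0.69 lower than each of them, again as a description.

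The levels of FLC and SOC1 were set side by side on each array. In gra2-D, the replicate with the highest FLC (6.05) had the lowest SOC1 (5.85), and the replicate with the lowest FLC (5.32) had the highest SOC1 (6.47). The gra3-D replicates were ordered in the same opposed way, from an FLC value of 4.32 with SOC1 at 7.03 to an FLC value of 4.78 with SOC1 at 6.62. In gra1-D the highest FLC (4.60) again went with the lowest SOC1 (6.43), but the lowest FLC did not go with the highest SOC1. Every FLC value of gra1-D and gra3-D lay under 5, close to background, so the order of replicates in these lines is uncertain. Wild type had the same order as gra1-D: its highest FLC (5.46) went with the lowest SOC1 (6.86). Its lowest FLC (4.90) went with the middle SOC1 value (6.95), and an FLC value of 5.43 went with SOC1 at 7.17. Replicate 3 had the highest FLC and the lowest SOC1 in wild type, gra1-D and gra2-D alike. Same-numbered arrays of these groups deviated together, so the orders within them are not independent, and a link between FLC and SOC1 was not tested. Between groups the orders did not mirror each other: gra1-D had the lowest mean FLC, and its mean SOC1 of 6.58 lay below the wild-type mean of 6.99. MAF5 did not follow FLC within gra2-D, where the array with the highest FLC had the lowest MAF5 (4.53).

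**Figure D3:**
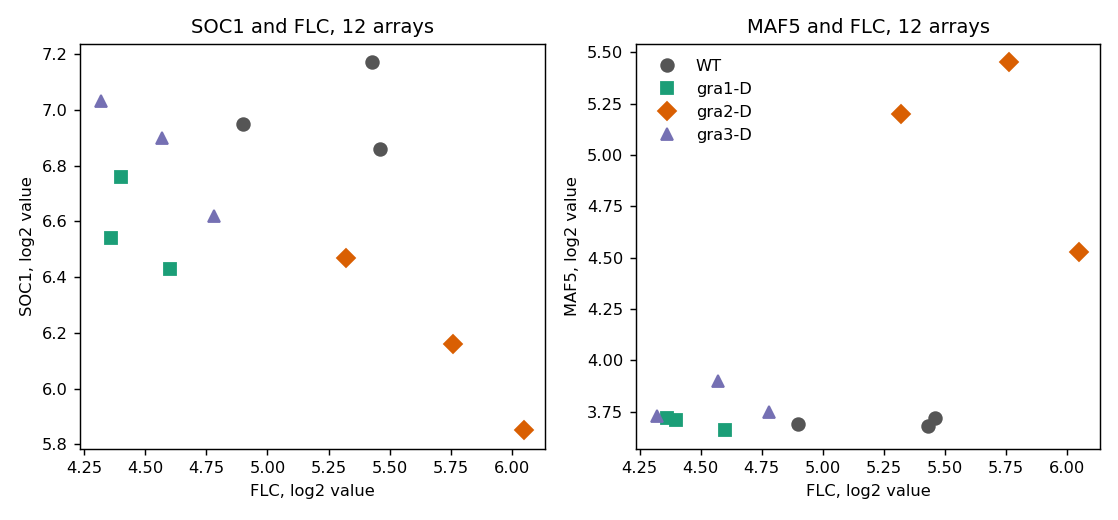
Log2 value of SOC1 (left) and of MAF5 (right) against that of FLC on the 12 arrays, with 1 point per array and 1 marker shape per group. The gra2-D arrays sit at high FLC and low SOC1 values and are the only ones with MAF5 above 3.90.

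FT (AT1G65480) encodes the mobile signal that induces flowering. Its arrays ran from 3.80 to 3.91 in wild type, 3.75 to 3.89 for gra1-D, 3.83 to 4.12 for gra2-D and 3.84 to 3.88 for gra3-D. All groups overlapped and all lay close to background, where differences of a low transcript cannot be read. The log2 differences of 0.11 (gra2-D), -0.02 (gra3-D) and -0.06 (gra1-D) were not called (limma adjusted p = 0.432, 0.953 and 0.783). Its homologue TSF stayed at group means from 4.16 to 4.28, and CO, the activator of FT in long days, at 4.26 to 4.37.

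SPL3 (AT2G33810) was measured at 5.98, 5.88 and 5.93 in wild type and at 5.29, 5.38 and 5.25 in gra2-D. It gave 5.69, 5.66 and 5.28 in gra1-D and 5.95, 5.49 and 5.42 in gra3-D. The gra2-D and gra1-D arrays lay below all wild-type arrays, and 1 gra3-D array reached the wild-type range. SPL3 fell 1.54-fold in gra2-D (-0.62 ± 0.13, SE; limma adjusted p = 0.00685), a call that held under each of 21 other settings. It stood at -0.39 ± 0.13 in gra1-D (adjusted p = 0.116) and -0.31 ± 0.13 in gra3-D (adjusted p = 0.229). Without gra3-D replicate 1, both were called (limma adjusted p = 0.0395 and 0.0262). SPL3 was also called in gra1-D with arrays paired by number and gra3-D left out (limma adjusted p = 0.0257). With all 12 arrays paired it was not (adjusted p = 0.0587), under the same limit from gra3-D.

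Between gra2-D and the other mutants, 3 of the 8 genes had no overlap between the 3 gra2-D arrays and the 6 arrays of gra1-D and gra3-D: FLC, MAF4 and MAF5, all higher. Over all loci, 5.78% had no such overlap, 3.5% with gra2-D above both. The set was chosen on this contrast, and the count is a description. The remaining genes differed from the mean of the other mutants by 0.08 (MAF1), -0.04 (SVP), 0.15 (FT), -0.27 (SPL3) and -0.55 (SOC1).

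Loci next to the FLC clade genes were read for position. Of the 10 measured loci nearest to FLC in locus order, 1 was called in gra2-D and 0 in gra1-D or gra3-D by limma (1 and 1 of them at an unadjusted p under 0.05). Over all loci, the same fit called 11.5% in gra2-D, 5.58% in gra1-D and 6.11% in gra3-D. The called locus near FLC, AT5G10160, fell by 0.40 in gra2-D (adjusted p = 0.00182), opposite in sign to FLC there. Of the 10 measured loci around the MAF2 to MAF5 cluster, ASN2 (AT5G65010), an asparagine synthetase gene, fell by 0.37 in gra2-D (adjusted p = 0.0133). This call ended without WT replicate 1 or gra2-D replicate 3 (adjusted p up to 0.0609). With arrays paired and gra3-D left out, AT5G65110, also near the cluster, was called lower in gra1-D (-0.27, limma adjusted p = 0.047, beside 0.0587 unpaired). None of the 20 neighbours was called higher in any mutant, and the highest log2 difference among those near the cluster was 0.23 in gra2-D, beside 1.36 for MAF5.

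The genes upstream of FLC were taken from lists of activators, of the autonomous pathway that lowers FLC, and of Polycomb and vernalization genes that silence it. Of 21 measured activators, 1 was called in each mutant, beside 11.5% of all loci in gra2-D, 6.11% in gra3-D and 5.58% in gra1-D. ATH1 (AT4G32980), a homeobox gene that raises FLC and shares its name with the array type, was 0.83 ± 0.073 higher in gra2-D (SE; adjusted p = 3.53e-06) and 0.78 ± 0.073 higher in gra3-D (adjusted p = 8.15e-06). It lies in the raised run of both lines, before its start in gra1-D, where it stood at -0.10 ± 0.073 (adjusted p = 0.558). ARP6, a subunit of the chromatin remodeller that deposits the histone variant needed for FLC expression, fell in gra1-D by 0.26 ± 0.066 (adjusted p = 0.039). FRI itself lay at 5.16 in wild type and at 5.24 to 5.31 in the mutants.

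Of 11 measured autonomous pathway genes, SKB1 (AT4G31120), an arginine methyltransferase gene that represses FLC, fell by 0.33 ± 0.088 in gra1-D (SE; adjusted p = 0.0451) and by 0.34 ± 0.088 in gra3-D (adjusted p = 0.0362). In gra2-D it stood at -0.23 ± 0.088 (adjusted p = 0.116), and limma called 0 of the 11 there (3 at an unadjusted p under 0.05). Its locus name precedes the start of the raised run in gra2-D. FCA, FY, LD, FLK and FLD were not called in any mutant. Of 10 measured Polycomb and vernalization genes, among them VRN2, CLF, SWN and LHP1, limma called 0 in each mutant (1 in each at an unadjusted p under 0.05). The calls of ARP6 and SKB1 are weak: that of ARP6 ended on leaving out 1 of 9 arrays (adjusted p up to 0.154), and those of SKB1 on leaving out 1 of 10 (gra1-D, up to 0.168) or 1 of 6 (gra3-D, up to 0.134). Both also ended with centring of the arrays, and in gra1-D with a further quantile normalization and with the 2 groups fitted by themselves.

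**Figure D4:**
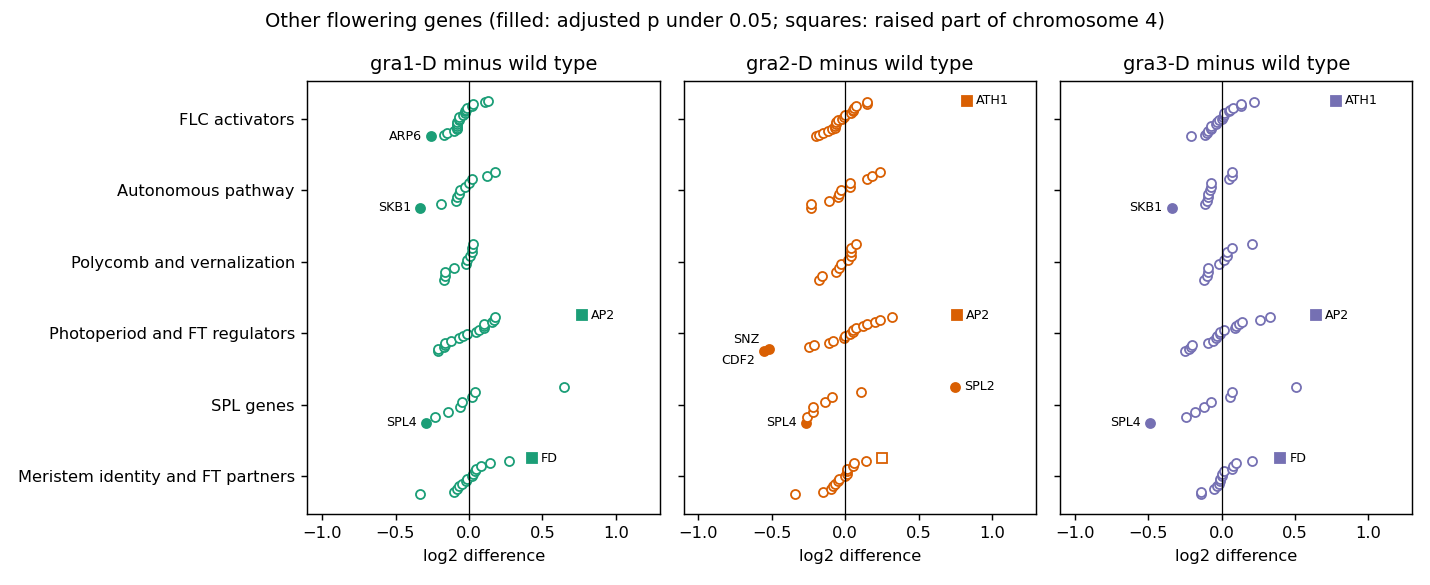
Log2 difference from wild type (horizontal axis) of 83 other flowering genes in 6 lists (vertical axis, genes spread for legibility) in each mutant. Filled points passed an adjusted p under 0.05 and are named; squares lie in the raised run of chromosome 4 of that mutant. Most points lie near 0, and ATH1, AP2 and SPL2 are the named genes furthest to the right.

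Among 18 measured photoperiod genes and regulators of FT, AP2 (AT4G36920), a floral identity gene of the family that represses FT and SOC1, rose in all mutants, with 0.77 ± 0.10 for gra1-D, 0.76 ± 0.10 for gra2-D and 0.64 ± 0.10 for gra3-D (SE; adjusted p = 0.00032, 0.000231 and 0.00158). It lies in the raised run of all 3 lines. CDF2, a repressor of CO, fell by 0.55 ± 0.15 in gra2-D (adjusted p = 0.0265), and SNZ, a relative of AP2, fell by 0.52 ± 0.14 there (adjusted p = 0.0327). Both calls ended without WT replicate 1 or gra2-D replicate 2 and in a fit of these 2 groups by themselves, and that of SNZ also without WT replicate 3 (adjusted p up to 0.121). The remaining 15 genes, including GI, COP1, TEM1 and TOE1, were not called. CDF3, a relative of CDF2, was called in gra2-D with arrays paired and gra3-D left out (-0.25, limma adjusted p = 0.0293, beside 0.355 unpaired). Its calls under the other settings were not examined.

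Relatives of SPL3 did not share one direction. Of 8 measured SPL genes, SPL2 was 0.75 ± 0.20 higher in gra2-D (SE, limma adjusted p = 0.0292). It stood at 0.51 in gra3-D (adjusted p = 0.199) and at 0.65 in gra1-D (adjusted p = 0.0895, and 0.0175 with arrays paired and gra3-D left out). SPL4, a close relative of SPL3, fell by 0.49 ± 0.077 for gra3-D, 0.29 ± 0.077 for gra1-D and 0.27 ± 0.077 for gra2-D (adjusted p = 0.00104, 0.0455 and 0.0374), with all its means under 5, so the sizes are uncertain. SPL9 stood at 0.02, -0.26 and -0.12 and was not called. The call of SPL2 ended without WT replicate 1 or 3 or gra2-D replicate 1 or 3 (adjusted p up to 0.108), and those of SPL4 on leaving out 1 of 10 arrays (gra1-D, up to 0.169) or 1 of 6 (gra2-D, up to 0.136). Both SPL4 calls also ended with arrays centred on the chromosomes without a raised run and with the 2 groups fitted by themselves, and that of gra1-D with quantile normalization, centring on all loci and an intensity trend.

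Genes that act with or after the integrators were close to background. Of 15 measured meristem identity genes and partners of FT, FD (AT4G35900), the bZIP partner of FT, was 0.43 ± 0.099 higher in gra1-D (SE; adjusted p = 0.021) and 0.40 ± 0.099 higher in gra3-D (adjusted p = 0.0274). In gra2-D it stood at 0.25 ± 0.099 (adjusted p = 0.134). FD lies in the raised run of all 3 lines, and its means, from 4.16 to 4.59, leave the size uncertain. The gra1-D call was lost without WT replicate 1 or 2 or gra1-D replicate 1, the gra3-D call without WT replicate 1 or 2 or gra3-D replicate 1 or 3, and both in a fit of the line and its control by themselves (adjusted p up to 0.111). LFY, AP1, CAL and FUL lay between 3.70 and 4.08 in all groups and were not called.

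Over the 6 lists together, 6 of 83 genes were called in gra2-D and 5 each in gra1-D and gra3-D, or 7.23%, 6.02% and 6.02%, beside the background shares given above. Between gra2-D and the mean of the other mutants, 1 of 83 was called (1.2%, beside 1.5% of all loci): ATH1, at 0.49 ± 0.063 (SE, limma adjusted p = 0.000471). ATH1 lies in the raised run of gra2-D and gra3-D only. Its mean was 9.11 in gra2-D, 9.06 in gra3-D and 8.18 in gra1-D, so the 0.49 comes mainly from the gra1-D value. Of the 9 floral organ genes used as markers, SEP4 (AT2G03710), known from leaves as well, fell by 0.35 ± 0.068 in gra2-D (SE; limma adjusted p = 0.00395), and none was called in the other lines against wild type (1 in each at an unadjusted p under 0.05).

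The 5 loci whose pattern over the 12 arrays was most like that of FLC were chosen by the root mean square difference of log2 values, each locus taken relative to its wild-type mean. AT4G31210 was nearest at 0.276, with -0.51 (gra1-D), 0.28 (gra2-D) and -0.69 (gra3-D) relative to wild type. AT4G31810 followed at 0.285 (-0.48, 0.61 and -0.56), then AT2G40960 at 0.299 (-0.47, 0.12 and -0.77), AT3G13270 at 0.338 (-0.42, 0.41 and -0.31) and Phox4 (AT4G32070) at 0.346 (-0.42, 0.47 and -0.55). Of these, AT4G31210, AT4G31810 and Phox4 lie in the part of chromosome 4 raised in gra2-D alone. The FLC values themselves were -0.81, 0.45 and -0.70.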

How the data were processed

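The authors deposited log2 expression values made with RMA, per the submitters' processing notes, with 1 row for each of 20777 loci. The version, the probe grouping and the genome build are not given in the sources used here, and the scale is inferred from the range of the values. No coordinates are printed. Symbols follow common use, and a TAIR10.1 gene table matched 20508 loci. Sequences were not used here.

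Means of the 4 groups were fitted with limma 3.58.1 in R 4.3.3 (lmFit, eBayes, 8 residual and 5.28 prior degrees of freedom), two-sided, with Benjamini-Hochberg adjustment over all loci of a contrast and no filter on low values. The set and the gene lists were chosen with earlier results of these data known. No p was adjusted over the set alone, and the contrast of gra2-D with the other mutants was not tested for it. The level of 5 was set with the values known, and the starts of the raised run come from an earlier analysis of the same arrays and were checked with the medians of 10 expressed loci on each side. Named genes are all of the set, called genes of each list up to 4, listed genes in the raised run, called neighbours and the 5 loci most like FLC. Alternatives were a further quantile normalization, centring of the arrays, a filter on low values, an intensity trend, array weights, the replicate number as a block, the groups of a contrast alone and each array left out. The fit was tested on simulated data. The number of arrays limits the precision, and the labels do not say that equal replicate numbers share a batch. In the values, same-numbered arrays of wild type, gra1-D and gra2-D deviated together in all 9 pairs (r from 0.239 to 0.39, all over 0.1) and were taken as pairs, while only 3 of the 9 pairs with gra3-D passed 0.1. A fit with the replicate number as a block and without the gra3-D arrays, chosen after seeing the data, was therefore added beside the unpaired one.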

Additional observations from a re-analysis of the deposited data

Results flagged for a closer look

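FLC lay above the wild-type mean on all gra2-D arrays and below it on all gra1-D and gra3-D arrays. The gra2-D difference of 0.45 was not called (limma adjusted p = 0.148). Nor was it called with all 12 arrays paired by replicate number (adjusted p = 0.099), where gra3-D replicates 1 and 3 did not deviate with their numbers. It was called with arrays paired and gra3-D left out, a fit chosen after seeing the data (adjusted p = 0.0196). The difference between the lines was -1.26 for gra1-D minus gra2-D and 1.15 for gra2-D minus gra3-D on the log2 scale, and it was not tested because it chose the gene. ATH1 was below the wild-type mean on all gra1-D arrays and above it on all gra2-D and gra3-D arrays, with gra1-D lower than gra2-D by a log2 difference of -0.93 and than gra3-D by -0.87. Limma called ATH1 (0.49) and SEP4 (-0.28, adjusted p = 0.0316) different between gra2-D and the mean of gra1-D and gra3-D. For ATH1 the gra2-D and gra3-D means were close (9.11 and 9.06), so that call does not set gra2-D apart from gra3-D. The SEP4 call ended with an intensity trend and without any 1 of 8 of the 9 mutant arrays (adjusted p up to 0.142), the exception being gra1-D replicate 1.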

How the results depend on the processing

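No named difference changed sign with a call under any alternative. The calls of MAF4, MAF5, SOC1 and SPL3 in gra2-D held in every alternative that gave them a value. With loci of a mean log2 value under 5 left out, 13423 loci stay. FLC, MAF4, MAF5 and FT drop out, which leaves MAF1, SVP, SOC1 and SPL3 of the set. Of these, 0, 2 and 1 were called in gra1-D, gra2-D and gra3-D, and 0 were apart in gra2-D. Of the other flowering genes, 3 and 3 were called in gra1-D and gra3-D. In the alternatives other than leaving out 1 array, this filter included, limma called 970 to 1820 loci in gra1-D, 1943 to 3271 in gra2-D and 1082 to 1610 in gra3-D. In gra1-D, 2 other flowering genes were called with a further quantile normalization, with arrays centred on chromosomes 1, 2, 3 and 5, with arrays centred on all loci (chosen after seeing the data) and with the groups of the contrast alone; the last setting gave 3 in gra2-D and 1 of the set in gra3-D, as did array weights. Centring moved no array by more than 0.042. Without any 1 array, 0 to 2 of the set were called in gra1-D, 4 to 5 in gra2-D and 0 to 2 in gra3-D. Over all 20777 loci, 794 to 1145, 1761 to 2352 and 817 to 1311 were called in these fits. Of the set, 3 to 5 were apart in gra2-D. Fewer arrays make this easier for any locus, and the share over all loci was not computed there. Of the neighbours, 1 to 3 were called. Other flowering genes called were then 1 to 4, 2 to 6 and 3 to 5 in the mutants and 1 between gra2-D and the others, and the FLC difference of 1.20 ran from 1.04 to 1.40. The cause of these moves was not tested, except that the filter removes loci by construction. With the replicate block over all arrays, 1, 4 and 2 of the set were called, as without it (adjusted p = 0.099 for FLC in gra2-D, and 0.106 for SOC1 and 0.0587 for SPL3 in gra1-D). With the block and without the gra3-D arrays, 3 were called in gra1-D and 5 in gra2-D, with SOC1 and SPL3 added in gra1-D and FLC in gra2-D; SPL2 and AT5G65110 in gra1-D and CDF3 in gra2-D were added too, and no other call among the set, the lists and the neighbours changed. With gra3-D, same-numbered arrays deviated together at r over 0.1 in 3 of 9 pairs, and the gra3-D results stay unpaired. Replicate 3 of gra3-D deviated with replicate 1 of the other groups instead, which limits the block over all arrays. Low signal limits FT, MAF4 and the wild-type level of MAF5.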
